A study of Mus musculus with 18 samples.

Results

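The genes described here are direct transcriptional targets of the tumour suppressor p53, taken from a list of 10: Cdkn1a, Mdm2, Plk3, Aen, Ccng1, Trp53inp1, Bax, Bbc3, Phlda3 and Zmat3. A gene was included if the array annotation gave it a probe set carrying that 1 gene symbol, which held for 8 of the 10, among 19938 genes in all. The probe set of Cdkn1a is annotated with a second gene as well, so no value is given for it, and Bax is not analysed here. Each of the 8 genes had 1 probe set, and on all 18 arrays each lay above the array's median level of 7.93 (log2 intensity following joint quantile normalization of the 18 arrays, the scale of every level below).

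p53 is a transcription factor that accumulates when DNA is damaged or when an oncogene is active, and it then switches on genes that stop the cell cycle, repair DNA or start cell death. Mdm2, one of its targets, is the ubiquitin ligase that marks p53 for destruction, which closes a negative feedback loop. In embryonic stem cells p53 also responds to differentiation cues, and in cultured embryonic fibroblasts it is a main brake on proliferation. The Wnt pathway, which loss of Apc or a stabilised beta-catenin turns on, is a growth signal to which p53 can respond.

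The study measured total RNA of 18 mouse cell samples, 1 array each. There were 3 lines of reprogrammed colon tumour cells (RTCs; colon tumour cells returned to a pluripotent state by induced pluripotent stem cell methods) and 2 derived lines, called #45 (of RTC 1) and #9 (of RTC 3). Embryonic stem cells (ESCs) were Apc +/+, Apc Min/+ and Apc Min/Min, 1 array each, Min being a truncating mutation of Apc. Small intestinal organoids (1 array without and 1 with 4-hydroxytamoxifen, 4-OHT) and embryonic fibroblasts (MEFs; 2 without and 2 with 4-OHT) came from #45. S33 ESCs and S33 MEFs had 1 array each without and with doxycycline (dox), and the series text names the switching on of a mutant beta-catenin in both cell types as a subject. Organoids had 4-OHT at 1 uM and MEFs at 2 ug/ml, in each case for 2 days. The labels do not give a dox dose, the change made in the derivatives, what 4-OHT switches, or the medium used for the Apc Min/Min array, a genotype that the growth protocol lists under trophoblast stem cell medium. They do not say whether replicate arrays came from separate cultures, so p-values measure the spread between these arrays, which may be technical.

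Marker genes separated the labelled cell types. The mean level of 6 pluripotency genes was 12.48 to 12.89 on the 10 pluripotent arrays and 6.56 to 6.88 on the other 8. The mean of 9 intestinal epithelium genes was 12.60 and 12.68 in organoids and at most 8.15 elsewhere. The mean of 10 fibroblast genes was 12.09 to 12.78 on the 6 MEF arrays, but also 8.68 to 10.95 on the pluripotent arrays against 7.31 and 7.40 in organoids. In bulk RNA, more cells of a type and more RNA per cell cannot be told apart.

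The p53 half-site, the short palindromic consensus to which a pair of p53 molecules binds, is shown because these genes are listed as p53 targets. Of the 8 genes, 6 had promoter windows in the RefSeq table (GRCm38.p6; 250 bases before to 50 after a transcription start), and the windows of 3 of them, Mdm2, Ccng1 and Aen, held an exact half-site. Counted by window, these were 4 of the 9 windows of the 6 genes, and 8.36% of all 32851 windows in the RefSeq set held one. The half-site reads the same on both strands, and no other motif was searched. The capitals below mark the match, each sequence running 5′ to 3′ on the gene's strand.
Mdm2 (chr10:117710915-117710964, minus strand): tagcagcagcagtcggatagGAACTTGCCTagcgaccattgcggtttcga
Ccng1 (chr11:40755442-40755491, minus strand): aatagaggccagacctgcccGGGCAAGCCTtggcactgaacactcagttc
Aen (chr7:78895927-78895956, plus strand): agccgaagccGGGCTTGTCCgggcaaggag
The matches began 186, 185 and 121 bases before a start site of Mdm2, Ccng1 and Aen. In another Aen window the same letters began 10 bases after the start. The windows of Plk3, Bbc3 and Phlda3 had no exact match, which says only that these letters are not in those windows. Such matches are a description of sequence and not of binding.

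Across cell types, the clearest orders were high levels in fibroblasts and low levels in organoids. Every one of the 6 MEF arrays was above every one of the 10 pluripotent arrays for 3 of the 8 genes, Mdm2, Ccng1 and Zmat3, where 21.9% of the 13937 genes above the array median on at least 1 array did the same. Both organoid arrays were below the other 16 for 3 genes, Mdm2, Trp53inp1 and Phlda3, against 12.9% of all genes.

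**Figure D1:**
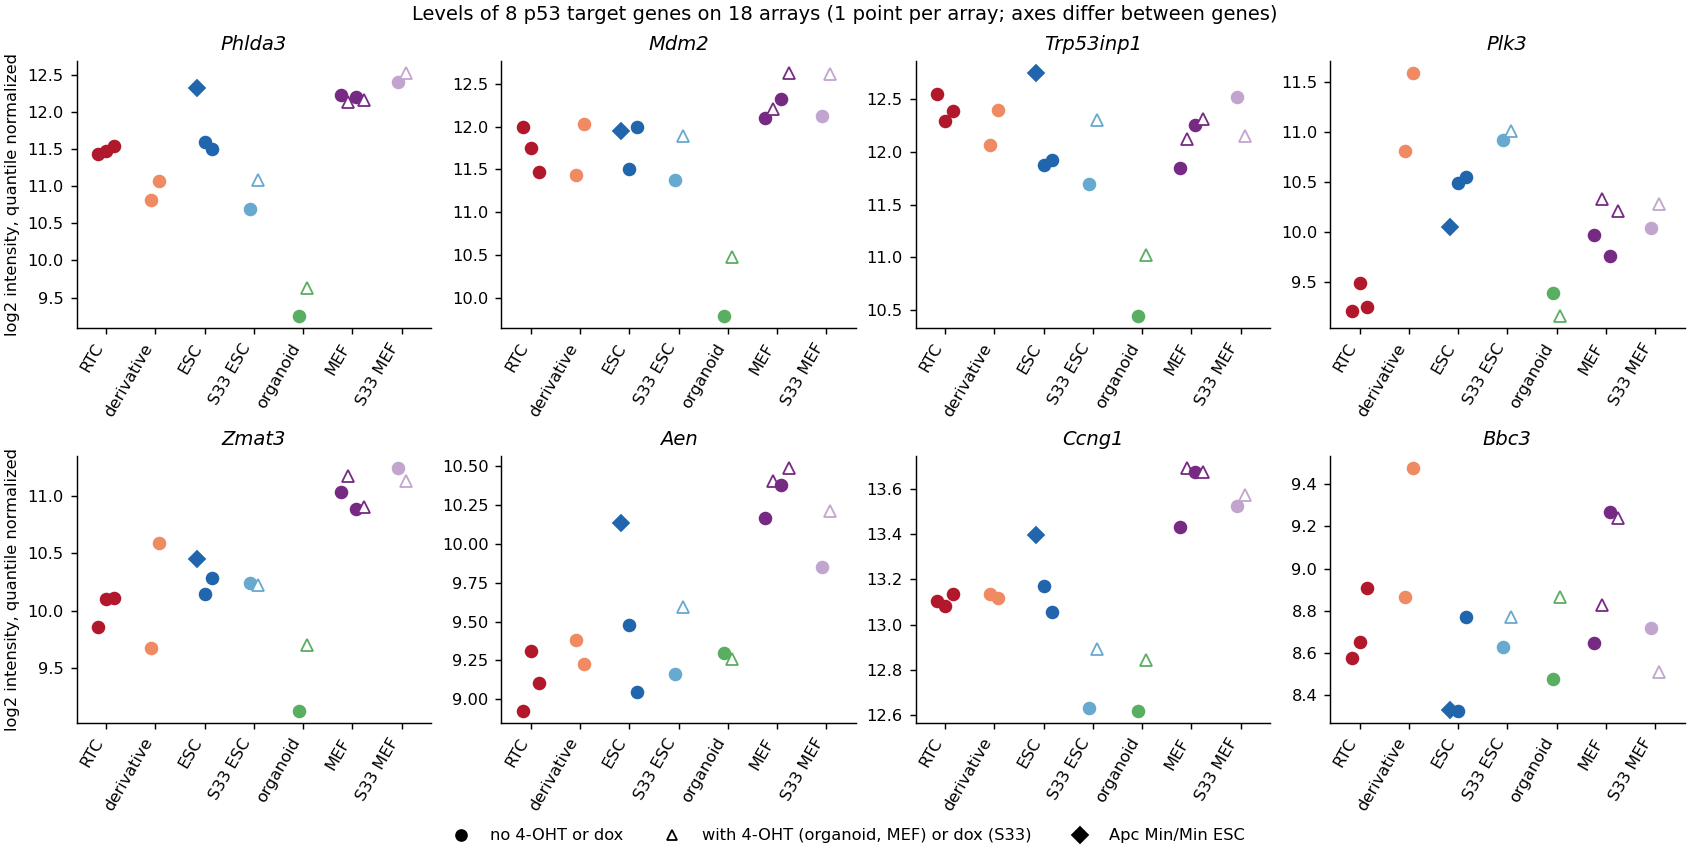
Log2 quantile-normalized intensity (y axis, a separate range per gene) of 8 p53 target genes in each cell type (x axis), 1 point per array; open triangles are arrays with 4-OHT or dox and the diamond is the Apc Min/Min ESC array. Phlda3 ran from 9.25 in organoids without 4-OHT to 12.52 in S33 MEFs with dox, and Plk3 was lower on the 3 RTC arrays (9.21 to 9.50) than on any other pluripotent array.

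Phlda3, which blocks recruitment of the survival kinase Akt to the membrane, had the widest range over the 18 arrays, 3.27. It was at 9.25 and 9.63 in organoids and between 12.14 and 12.52 in the 6 MEF arrays. The pluripotent arrays lay between, from 10.70 in S33 ESCs without dox to 12.33 in Apc Min/Min ESCs, the only pluripotent array inside the MEF range. Mdm2 had the next widest range, 2.83, from 9.79 in organoids without 4-OHT to 12.62 in MEFs with 4-OHT. Its 10 pluripotent arrays lay within 11.37 to 12.02 and did not separate by line or genotype.

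Trp53inp1, a stress protein that promotes p53 activity and autophagy, was at 10.44 and 11.02 in organoids and at 11.70 to 12.75 on the pluripotent arrays, which overlapped the MEF range of 11.85 to 12.52. Ccng1, a cyclin that recruits a phosphatase to Mdm2, varied least of the 8, with a range of 1.08: 12.62 and 12.84 in organoids, 12.63 to 13.40 in pluripotent cells and 13.43 to 13.69 in MEFs. Bbc3, the cell death activator Puma, had the next narrowest range, 1.15, and showed no order by cell type, its MEF arrays (8.51 to 9.27) overlapping both other classes. Its replicate arrays had a pooled SD of 0.32 (5 residual degrees of freedom), so most of its differences are of the size of that spread.

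Zmat3 ran from 9.13 in organoids without 4-OHT to 11.24 in S33 MEFs without dox, and Aen from 8.93 in RTC 1 to 10.49 in MEFs with 4-OHT. Plk3 had another order: it was low in organoids (9.40 and 9.16) and RTCs, and highest in pluripotent cells other than RTCs (10.05 to 11.58), with MEFs at 9.76 to 10.33.

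By likeness of pattern, the 5 genes whose levels correlated best with Mdm2 over the 18 arrays, among 13936 genes, were Cpt1c (Pearson r = 0.963), Ocrl (0.949), Tspyl2 (0.944), Nid1 (0.943) and Rab2b (0.941). These arrays share cell types and lines, so the correlations describe the ordering of cell types. Among the members, Mdm2 and Phlda3 (0.909), Ccng1 and Phlda3 (0.866) and Phlda3 and Zmat3 (0.855) followed each other most closely, while Plk3 and Ccng1 did not (-0.01). Within the 10 pluripotent arrays the same pairs were at 0.402, 0.773, 0.297 and -0.34, lower for each of the first 3 than over all cell types.

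Untreated MEFs were compared with ESCs to put the fibroblast level on a tested footing: the 2 MEF arrays without 4-OHT and S33 MEFs without dox against S33 ESCs without dox and the Apc Min/+ and Apc +/+ lines (limma, adjusted p under 0.05 by Benjamini-Hochberg over all genes tested). Of the 8 targets, 5 were higher in MEFs, 1 was lower and 2 did not pass, against 61.3% of 12681 genes called in either direction 31.4% called higher and 29.9% lower. The groups did not overlap for 6 of the 8 and for 69.5% of all genes. The median difference of the 8 was 0.57 on the log2 scale, and that of all genes 0.07. The share of targets called lies near that background. Immune cell markers averaged 10.22 and 8.18 on the 2 MEF arrays without 4-OHT and 7.12 on S33 MEFs. In the ESCs they averaged 7.39 to 7.73. By the mean 6 of the 8 were higher in MEFs and 2 lower, from -0.75 for Cd3e to 2.11 for Lyz2. Their part in the results of this comparison was not tested.

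Phlda3 was at 12.23, 12.20 and 12.40 in MEFs and at 11.59, 11.51 and 10.70 in the ESCs. The groups did not overlap, and the difference was 1.01 ± 0.25 (SE, n = 3 and 3, limma adjusted p = 0.011). Aen, an exonuclease that degrades DNA in dying cells, was at 10.16, 10.37 and 9.85 in MEFs against 9.48, 9.05 and 9.17 in ESCs, a difference of 0.90 ± 0.18 (limma adjusted p = 0.00505). It too was higher on every MEF array.

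Zmat3, an RNA-binding zinc finger protein, was at 11.03, 10.89 and 11.24 in MEFs and at 10.14, 10.28 and 10.24 in ESCs, and rose by 0.83 ± 0.13 (limma adjusted p = 0.00168). Its ESC values differed among themselves by less than the smallest gap to a MEF array. Ccng1 rose by 0.59 ± 0.17 (limma adjusted p = 0.0203), a call lost without the second MEF array (adjusted p = 0.0698). Mdm2 was 0.55 ± 0.18 higher (limma adjusted p = 0.0347), the least secure of these, since 7 of 12 alternative fits lost the call, at adjusted p up to 0.107.

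Plk3, a stress-activated Polo-like kinase, went the other way. It was at 9.97, 9.76 and 10.04 in MEFs and at 10.49, 10.55 and 10.92 in ESCs, and fell by 0.73 ± 0.16 (limma adjusted p = 0.00644), with no overlap. Trp53inp1 (0.37 ± 0.19, limma adjusted p = 0.123, and 0.0255 without the first MEF array) and Bbc3 (0.30 ± 0.21, adjusted p = 0.234) did not pass the test.

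Of 34 other p53 targets tested in the same comparison, 13 rose in MEFs and 8 fell, where 31.4% of all genes rose and 29.9% fell. The share called in either direction lies near the 61.3% of all genes. The largest rises were of the tetraspanin Cd82 (2.38 ± 0.41), the epoxide hydrolase Ephx1 (2.23 ± 0.47), the peptide transporter Tap1 (2.09 ± 0.62), the death receptor Fas (1.80 ± 0.36) and the dicarbonyl reductase Dcxr (1.35 ± 0.26). Tap1 was at 10.76 and 11.90 in the MEFs without 4-OHT but at 9.18 in S33 MEFs without dox. The largest falls were of the epithelial 14-3-3 protein Sfn (-2.87 ± 0.26), the DNA damage sensor Ddb2 (-1.37 ± 0.24), the mTOR inhibitor Ddit4 (-1.05 ± 0.22), the glycolysis regulator Tigar (-1.01 ± 0.18) and Gtse1 (-0.76 ± 0.15), which restrains p53 in G2. Gadd45a, a growth arrest gene, also fell (-0.64 ± 0.16), and Pmaip1, the cell death activator Noxa, did not pass (-0.15 ± 0.15, limma adjusted p = 0.422).

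Of 16 p53 regulators tested, 2 rose and 7 fell, against 31.4% and 29.9% of all genes. Those that fell included the p53 inhibitor Mdm4 (-0.85 ± 0.15), the checkpoint kinases Chek2 (-2.03 ± 0.12) and Atr (-1.12 ± 0.11), the deubiquitinase Usp7 (-1.27 ± 0.11) and the phosphatase Ppm1d (-0.51 ± 0.13), and those that rose were the kinase Hipk2 (1.27 ± 0.27) and the acetyltransferase Crebbp (0.76 ± 0.22). Cdkn2a, the Ink4a and Arf locus, did not pass (0.52 ± 0.35, limma adjusted p = 0.23). Of 15 cell cycle genes that p53 and p21 are known to lower, 14 fell in MEFs, against 29.9% of all genes. The list median was -1.80, and the falls included Chek1 (-2.69 ± 0.14) and Bub1 (-2.56 ± 0.22).

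RTCs were compared with ESCs under the study's question of whether reprogrammed tumour cells share the features of pluripotent stem cells. Of the 8 targets, Plk3 was lower and Trp53inp1 higher in RTCs, against 6.69% of 12080 genes called, 3.21% higher and 3.48% lower. Of the calls 388 were higher and 420 lower, but 213 and 145 as deposited and 272 and 595 with arrays centred on their median, which puts the median of all genes at -0.14. The median difference of the 8 was 0.13, with -0.03 over all genes.

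Plk3 was at 9.21, 9.50 and 9.26 in RTC 1, 2 and 3 and at 10.92 in S33 ESCs, 10.55 in Apc Min/+ and 10.49 in Apc +/+. Every RTC array was below every ESC array, and the gap of 1.33 ± 0.16 was lower in RTCs by a factor of 2.52 (SE, n = 3 and 3, limma adjusted p = 0.00489). The call held in all 12 alternative fits, and only 0.811% of genes had a more negative difference.

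Trp53inp1 was at 12.55, 12.30 and 12.39 in RTCs and at 11.88, 11.93 and 11.70 in the ESCs. The groups did not overlap, and the difference was 0.58 ± 0.13 (limma adjusted p = 0.0441). This call was lost in 9 of 12 alternative fits, among them each of the 6 that left out an array (adjusted p = 0.055 to 0.159).

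For the other 6 genes the test was not passed. Mdm2 (0.11 ± 0.21, limma adjusted p = 0.784), Ccng1 (0.15 ± 0.16, adjusted p = 0.612), Phlda3 (0.22 ± 0.24, adjusted p = 0.628), Bbc3 (0.14 ± 0.16, adjusted p = 0.653) and Aen (-0.12 ± 0.16, adjusted p = 0.717) overlapped between RTCs and ESCs. Zmat3 was lower on every RTC array (9.85, 10.10 and 10.11 against 10.14, 10.28 and 10.24), but by 0.20 ± 0.13 (limma adjusted p = 0.399). Groups that did not overlap were seen for 31.9% of all genes. Fibroblast markers averaged 9.39, 10.00 and 9.86 in the RTCs and 10.66, 10.72 and 9.24 in the ESCs. Immune cell markers averaged 7.97, 8.90 and 8.88 in the RTCs against 7.39, 7.50 and 7.73 in the ESCs, higher on every RTC array, and all 8 of them were higher by the mean, from 0.25 for Csf1r to 2.87 for Lyz2. The part of either list in the Plk3 and Trp53inp1 results, or in those of the other genes called here, was not tested.

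Of 34 other p53 targets, Pmaip1 rose in RTCs by 0.76 ± 0.13 (limma adjusted p = 0.0186), from 9.41, 9.38 and 9.11 in the ESCs to 10.11, 9.98 and 10.08. The nuclear body protein gene Pml (-0.68 ± 0.12, adjusted p = 0.0197) and the heparan sulfatase Sulf2 (-0.66 ± 0.13, adjusted p = 0.0265) fell. Over all genes 6.69% were called, and that list had 0 to 4 genes called when 1 array was left out. None of 16 regulators and none of 15 cell cycle genes passed: Mdm4 differed by 0.30 ± 0.31 and Cdkn2a by 0.12 ± 0.30. Gadd45a was lower on every RTC array (-0.50 ± 0.16, limma adjusted p = 0.113).

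**Figure D2:**
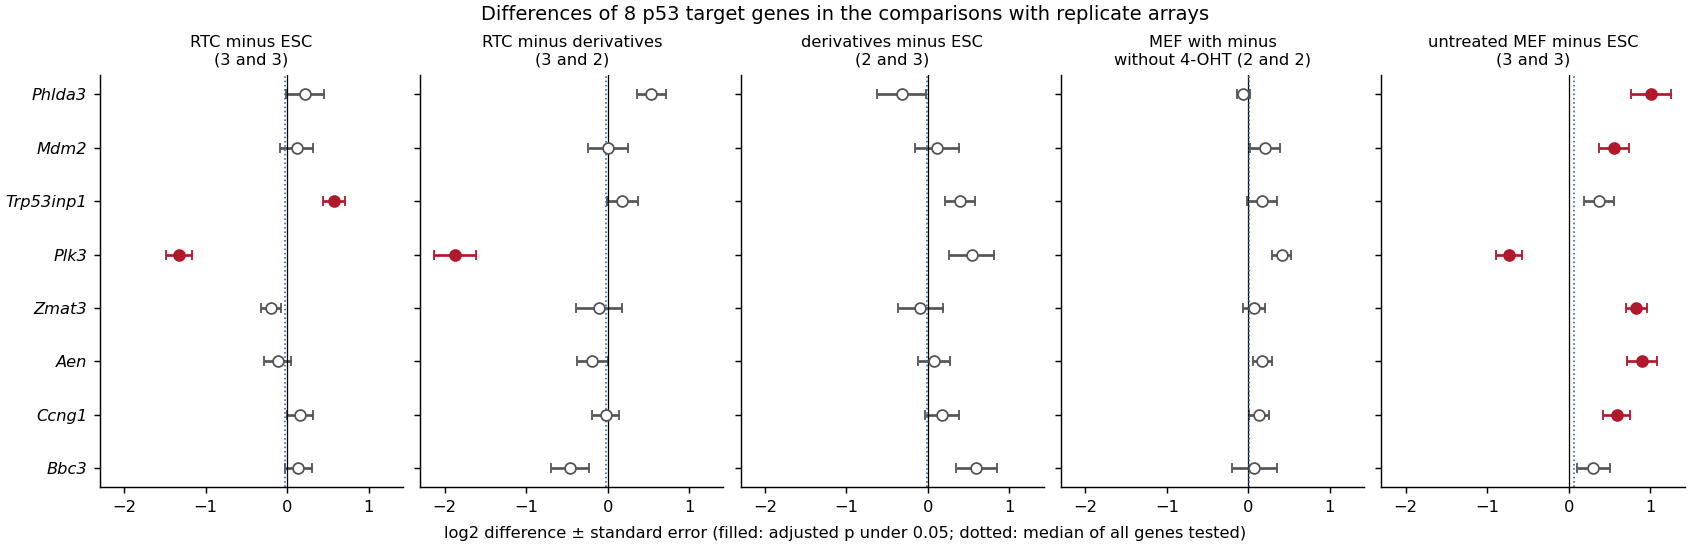
Log2 difference (x axis) with its standard error for each of the 8 p53 target genes (y axis) in the 5 comparisons with replicate arrays, numbers of arrays in brackets; filled red points have an adjusted p under 0.05 and the dotted line is the median of all genes tested. Plk3 lies at -1.33 and -1.87 in the comparisons of RTCs, while 5 of the 8 genes are called higher in untreated MEFs than in ESCs, where 31.4% of all genes are.

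RTCs were also compared with their derivatives, which the series text relates to the effect of Apc mutation in different cells. Plk3 fell and none of the other 7 targets passed, against 1.60% of 11940 genes called. Of those calls 100 were higher and 91 lower, and 58 and 23 as deposited. The RTC arrays are the same as in the comparison with ESCs, so the 2 results are not independent.

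Plk3 was at 10.81 in derivative #45 and 11.58 in #9, the highest level of any array, against 9.21, 9.50 and 9.26 in the RTCs. The difference was -1.87 ± 0.26 (SE, n = 3 and 2, limma adjusted p = 0.0234), or 3.66-fold, and 0.168% of genes had a more negative one. Within each line the direction was the same: RTC 1 minus #45 was -1.59 and RTC 3 minus #9 was -2.33. The call was lost without RTC 1 (adjusted p = 0.10) or RTC 3 (adjusted p = 0.0846), where the differences were -1.82 and -1.84.

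Phlda3 was at 11.43, 11.47 and 11.54 in RTCs and at 10.81 and 11.08 in the derivatives. It was higher on every RTC array, but the difference of 0.54 ± 0.18 did not pass (limma adjusted p = 0.239), and 31.1% of genes had groups that did not overlap. Mdm2 moved in opposite directions within the lines, 0.56 higher in RTC 1 than in #45 and lower in RTC 3 than in #9 (difference -0.56), so that its mean difference was 0.01 ± 0.25. Bbc3 was -0.46 ± 0.23 apart (limma adjusted p = 0.447), with its highest level of all, 9.48, in #9.

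None of 33 other p53 targets, 17 regulators or 15 cell cycle genes passed in this comparison. Gadd45a was at 9.86, 9.80 and 9.90 in RTCs against 11.14 and 10.52 in derivatives, lower on every RTC array but short of the threshold (-0.97 ± 0.22, limma adjusted p = 0.0902). Fibroblast markers averaged 9.50 in #45 and 9.14 in #9, against 9.39 to 10.00 in the RTCs. All 10 were higher in RTCs by the mean, up to 1.10 for S100a4, and 1 on every array. Immune cell markers averaged 8.40 in #45 and 7.86 in #9, against 7.97 to 8.90 in the RTCs. All 8 were higher in RTCs by the mean, up to 1.09 for Lyz2, and 1 on every array. The part of these markers in the Plk3 result was not tested.

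Derivatives against the same 3 ESCs gave 0 calls among the 8 targets. Over all genes limma called 0 of 11941, with 1012 at an unadjusted p under 0.05, and limma with an intensity trend called 0, with 999. Plk3 was 0.54 ± 0.28 higher in derivatives (limma adjusted p = 0.655) and overlapped with S33 ESCs at 10.92. Bbc3 (0.59 ± 0.25, adjusted p = 0.589) and Trp53inp1 (0.39 ± 0.19, adjusted p = 0.633) were higher on both derivative arrays than on the ESC arrays, where 25.5% of genes had no overlap.

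Apc Min/Min ESCs bear on what full loss of wild-type Apc does in stem cells, with 1 array set against the mean of Apc +/+ and Apc Min/+ ESCs and therefore not tested. Of the 8 targets 0 were 2-fold apart, against 10.4% of 11632 genes, and 6 were higher in value, against 43.5%. The median difference of the 8 was 0.26, and that of all genes -0.07. Of the 2-fold genes 520 were higher and 691 lower, against 340 and 1346 as deposited, where the median of all genes was -0.32. On the deposited scale Aen, Trp53inp1 and Phlda3 were at 0.63, 0.57 and 0.47. Mdm2 and Zmat3 turned from higher to lower in value there (-0.05 and -0.02), though both stayed above the median of all genes.

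The higher values were those of Aen, Trp53inp1 and Phlda3. Aen was at 10.14 in Apc Min/Min against 9.48 in Apc +/+ and 9.05 in Apc Min/+, a difference of 0.87, with a replicate SD for this gene of 0.15 elsewhere in the series. Trp53inp1 was at 12.75 against 11.88 and 11.93 (difference 0.84, replicate SD 0.19). Phlda3 was at 12.33 against 11.59 and 11.51 (difference 0.77, replicate SD 0.092).

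These 3 genes stood above both comparison arrays by several times their replicate SD, and Aen alone reached 2-fold against Apc Min/+ (1.09). That SD holds no ESC array and does not measure the spread between ESC lines. S33 ESCs without dox minus Apc +/+ was -0.90 for Phlda3, -0.31 for Aen and -0.18 for Trp53inp1. Apc Min/+ minus Apc +/+ was -0.09, -0.43 and 0.05 in that order. Plk3 was lower, at 10.05 against 10.49 and 10.55 (difference -0.47, replicate SD 0.28). Ccng1 was 0.28 higher (replicate SD 0.079). Mdm2 (0.20), Zmat3 (0.23) and Bbc3 (-0.22) differed by less than their replicate SD of 0.29, 0.32 and 0.32.

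Among other p53 targets, Pmaip1 was the largest rise in value, 10.72 in Apc Min/Min against 9.41 and 9.38 (difference 1.33), and Ddit4 the largest fall, 9.92 against 11.65 and 11.35 (-1.58). Of the 34 other targets 16 were higher in value, with a median of -0.03, against 43.5% of all genes. The regulators Crebbp (1.00) and Mdm4 (0.73) were higher and Cdkn2a lower (-0.68). Cell cycle genes averaged 11.78 against 11.89 and 11.95. Fibroblast markers averaged 10.95 on the Apc Min/Min array against 10.66 and 10.72, with 8 of the 10 higher and 2 lower by the mean, from -2.26 for S100a4 to 2.05 for Pdgfra. Immune cell markers averaged 7.93 against 7.39 and 7.50, with 4 of 8 higher and 4 lower, from -0.48 for Cd3e to 2.67 for Lyz2. The part of these markers and of the culture medium in the result was not tested.

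Doxycycline in S33 ESCs, which addresses induction of mutant beta-catenin in stem cells, gave higher values for 7 of the 8 targets, against 51.6% of 11254 genes, and 0 were 2-fold apart, against 3.16%. The contrast has 1 array per arm and no test. Trp53inp1 went from 11.70 without to 12.30 with dox (difference 0.60), Mdm2 from 11.37 to 11.89 (0.52), Aen from 9.17 to 9.59 (0.43), Phlda3 from 10.70 to 11.09 (0.39) and Ccng1 from 12.63 to 12.89 (0.26).

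Each of these 5 differences exceeded the gene's replicate SD, which was 0.19, 0.29, 0.15, 0.092 and 0.079 in the same order. Bbc3 (0.14), Plk3 (0.08) and Zmat3 (-0.02) did not. The replicate SD holds no ESC array. It is of single arrays, and a difference between 2 arrays spreads more widely. The median over the 8 was 0.33 and over all genes 0.01. Fibroblast markers averaged 9.24 without and 8.68 with dox, with 9 of the 10 lower, from -1.32 for Postn to 0.71 for Pdgfra. Immune cell markers averaged 7.73 and 7.56, with 4 higher and 4 lower, from -1.87 for Lyz2 to 0.61 for Cd3e. The part of these markers in the values of the targets was not tested. Of 33 other targets 26 were higher in value, against 51.6% of all genes, with a median of 0.26. Among them 1 was 2-fold apart, Ddit4, from 11.57 to 10.24, where 3.16% of all genes were. Mdm4 was higher by 0.62, and Pmaip1 (0.09), Gadd45a (-0.01) and Cdkn2a (0.10) by little or nothing.

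In S33 MEFs the same treatment gave a split. Of the 8 targets 5 were higher in value, against 55.0% of 11390 genes, and 0 were 2-fold apart, against 6.22%. Of 33 other targets 18 were higher in value, with a median of 0.03. Mdm2 went from 12.12 to 12.61 (difference 0.50) and Aen from 9.85 to 10.21 (0.36), while Trp53inp1 went from 12.52 to 12.15 (-0.36). Phlda3 (0.12), Plk3 (0.23), Ccng1 (0.05), Zmat3 (-0.11) and Bbc3 (-0.21) moved less. Of these only Phlda3 was beyond its replicate SD (0.092), and by little. That SD is of single arrays, and a difference between 2 arrays spreads more widely. Mdm2, Aen, Phlda3, Plk3 and Ccng1 had higher values with dox in both cell types. Trp53inp1 and Bbc3 had opposite signs in ESCs and MEFs, and Zmat3 was slightly lower in both. No difference between the cell types was tested.

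Cell cycle genes were far lower in these fibroblasts with dox. Of 15, 14 were at least 2-fold lower, where 3.71% of all genes were, and the list median was -1.39. The largest falls were of the topoisomerase Top2a (from 10.89 to 9.02, -1.87), the spindle checkpoint kinase Bub1 (from 10.33 to 8.46, -1.87) and the proliferation marker Mki67 (from 11.50 to 9.70, -1.81). The exception was E2f1, a transcription factor of S phase entry (0.28). Beside them Cdkn2a, which holds MEFs in senescence, went from 9.56 to 10.69 (1.13), the highest level of the 18 arrays, and among other targets Perp, a cell adhesion and death gene, rose in value (1.03), Pmaip1 did so by 0.90, and Ckap2, a spindle protein, was lower (-1.62). Fibroblast markers averaged 12.78 without and 12.28 with dox on the same arrays, with 6 of 10 lower, from -2.32 for Lum to 0.29 for Thy1, and their part in these values was not tested. In S33 ESCs the mean of the cell cycle genes was 11.88 without and 11.99 with dox.

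**Figure D3:**
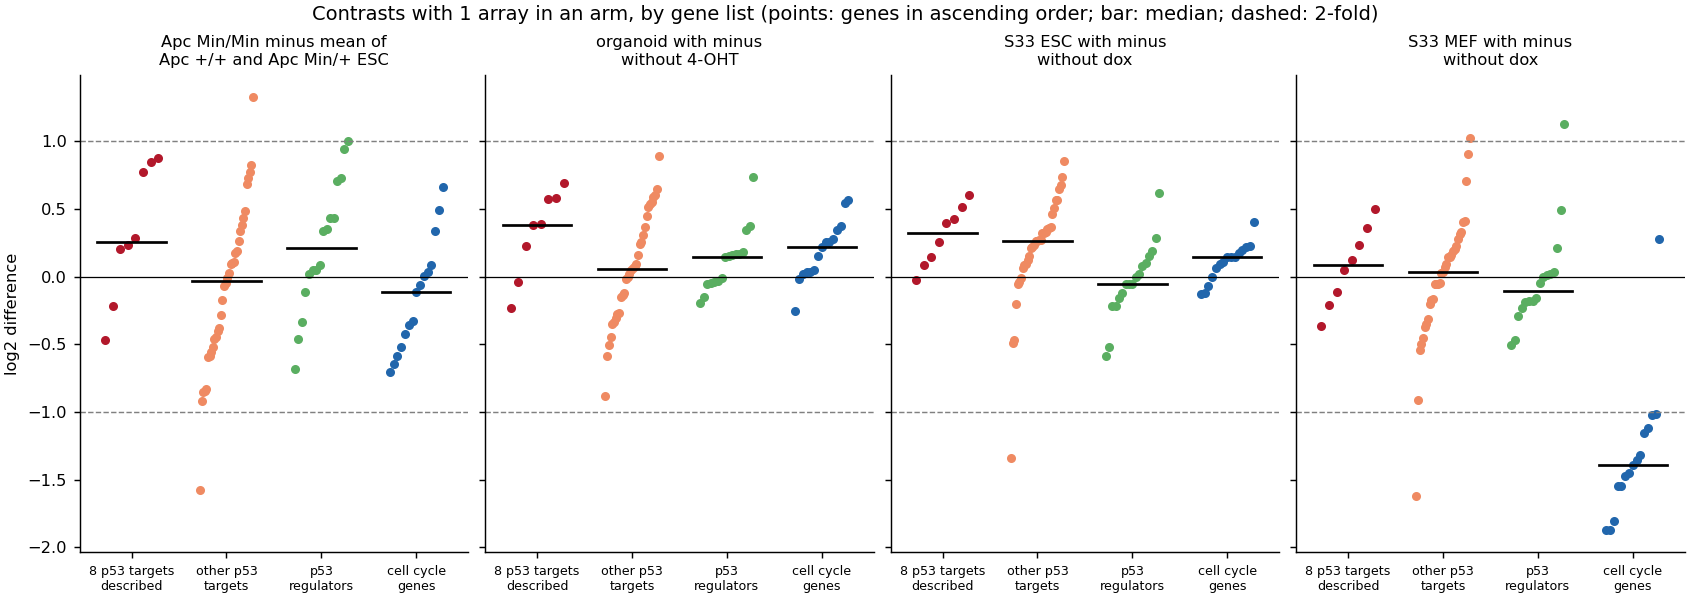
Log2 difference (y axis) of each gene in 4 contrasts with 1 array in an arm, split by gene list (x axis); points are genes in ascending order, bars are list medians and dashed lines mark 2-fold. The 8 p53 targets described stay inside 2-fold in all 4 panels, whereas 14 of 15 cell cycle genes lie below it in S33 MEFs with dox.

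Treatment of #45-derived MEFs with 4-OHT, the contrast with 2 arrays per arm, gave 0 calls among the 8 targets. Unpaired limma called 0 of 11603 genes, with 519 at an unadjusted p under 0.05, and the intensity trend called 0, with 548. A fit with the shared number of the MEF arrays as a replicate block is given in the last section. It called genes, but none of the 8 targets. In value 7 of the 8 were higher with 4-OHT, against 51.3% of all genes, and the median of the 8 was 0.15.

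Plk3 was at 9.97 and 9.76 without and at 10.33 and 10.21 with 4-OHT. Both treated arrays were above both untreated ones, as for 32.8% of genes in either direction, and the difference of 0.41 ± 0.12 (SE, n = 2 and 2) did not pass after adjustment (limma adjusted p = 1.00). Aen (10.16 and 10.37 against 10.40 and 10.49) and Ccng1 (13.43 and 13.67 against 13.69 and 13.68) also did not overlap, with differences of 0.17 ± 0.11 and 0.13 ± 0.12. Mdm2 was 0.21 ± 0.19 and Trp53inp1 0.17 ± 0.18 higher, and Phlda3 differed by -0.06 ± 0.08.

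Gadd45a was at 9.80 and 9.59 without and 10.55 and 10.22 with 4-OHT (0.69 ± 0.16, limma adjusted p = 1.00). In this unpaired fit none of 33 other targets, 16 regulators or 14 cell cycle genes passed. In value 17 of the 33 other targets were higher, with a median of 0.01, against 51.3% of all genes. Immune cell markers averaged 10.22 without and 9.83 with 4-OHT on the first MEF pair, and 8.18 without and 8.07 with it on the pair titled 2. Fibroblast markers went from 12.61 to 12.22 and from 12.50 to 12.09 with 4-OHT, 9 of the 10 being lower by the mean and 6 on both arrays, down to -1.17 for Lum. The part of these markers in the values of the targets was not tested.

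In organoids from #45, 4-OHT gave higher values for 6 of the 8 targets, against 50.3% of 11397 genes, and 0 were 2-fold apart, against 2.84%. Mdm2 went from 9.79 without to 10.48 with 4-OHT (difference 0.69), Trp53inp1 from 10.44 to 11.02 (0.58), Zmat3 from 9.13 to 9.70 (0.57) and Phlda3 from 9.25 to 9.63 (0.38). Bbc3 was 0.39 and Ccng1 0.23 higher. These 6 differences exceeded the replicate SD of their genes, which holds no organoid array. That SD is of single arrays, and a difference between 2 arrays spreads more widely. Bbc3 exceeded it by little (0.39 against 0.32). The contrast has 1 array per arm and was not tested. Fibroblast markers averaged 7.31 without and 7.40 with 4-OHT, with 3 higher and 7 lower, from -0.71 for Pdgfrb to 3.07 for Fn1. Immune cell markers averaged 7.62 and 7.68, with 4 higher and 4 lower. Intestinal epithelium markers averaged 12.68 and 12.60, with 5 higher and 4 lower. The part of these markers in the values of the targets was not tested.

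The scaling of this pair of arrays moved the values. Centring each array on its median in place of quantile normalization shifted the median of all genes by 0.40 and put Mdm2 at 1.13 and Trp53inp1 at 1.06. With it Aen went from -0.04 to 0.30 and Plk3 from -0.23 to 0.09, but less the median of all genes Aen was at -0.04 and -0.10 and Plk3 at -0.24 and -0.31 under these scalings, each within or near its replicate SD of 0.15 and 0.28. Of the 2-fold genes 239 were higher and 85 lower, against 575 and 38 with centring and 104 and 622 as deposited. Relative to the median of all genes, Mdm2, Trp53inp1, Zmat3, Phlda3, Ccng1 and Bbc3 were higher under both scalings. For Bbc3 the values were 0.39 and, with centring, 0.28, the latter below its replicate SD of 0.32. Mdm4 was 0.74 higher as well, Gadd45a -0.44, and none of 32 other targets or 15 cell cycle genes was 2-fold apart. In value 18 of the 32 other targets were higher, with a median of 0.05, against 50.3% of all genes. Of the 15 cell cycle genes 13 were higher, with a median of 0.22.

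Side by side, the treatments gave the following values for the feedback gene Mdm2: 0.69 with 4-OHT in organoids, 0.21 ± 0.19 with 4-OHT in MEFs, 0.52 with dox in S33 ESCs and 0.50 with dox in S33 MEFs. For Trp53inp1 they were 0.58, 0.17 ± 0.18, 0.60 and -0.36 in that order. For Plk3, the gene that separated RTCs from both ESCs and derivatives, they were -0.23, 0.41 ± 0.12, 0.08 and 0.23. Doses differed between organoids and MEFs, and no difference between cell types was tested.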

How the data were processed

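The deposited values are linear intensities, 1 per probe set and array, for 28856 probe sets; the authors' background correction and normalization are not given in the sources used here. Array medians ran from 142 to 317, and some pairs of arrays shared identical values. The share was 19.2% for the MEF pair titled 2 and 17.3% for Apc Min/Min and Apc +/+ ESCs. It was 11.7% and 9.52% for #9 with the MEF arrays titled 2 without and with 4-OHT, and at most 0.104% for any other pair. Values were therefore taken to log2 and all 18 arrays quantile normalized together (limma 3.58.1, R 4.3.3), less 3 probe sets that hold no value. The annotation gave 1 symbol to 21789 probe sets and several to 1621, and the probe set with the highest mean stood for a gene. Genes above the array median (percentile 50) on at least 1 array compared were tested with lmFit and eBayes, two-sided, with Benjamini-Hochberg adjustment at 0.05. Contrasts with 1 array in an arm were described, with a log2 size of 1 counted as 2-fold. Errors are standard errors from the fits. The replicate SD pools RTCs, derivatives and both MEF groups and is that of single arrays, not of a difference. The fits were tested on simulated data.

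The members and gene lists were chosen with earlier results of these data known. Their shares, set beside those of all genes, are therefore descriptions and do not test the lists. Named are all members, the fixed genes Mdm4, Cdkn2a, Pmaip1 and Gadd45a, up to 5 called genes of the lists each way, or up to 3 at 2-fold without a test; E2f1 and single cell type markers were named after their values were seen. The number of arrays limits precision. RTC 1 with #45 and RTC 3 with #9 share a line of origin; their deviations from the group means correlated at 0.104 and 0.025 over genes. Alternatives were the deposited scale, median centring, the filter, the probe set rule, a trend, leaving out arrays and blocks.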

Additional observations from a re-analysis of the deposited data

How the results depend on the processing

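The number of the 8 targets called in RTCs against ESCs was 2, and 1 as deposited, 1 with arrays centred on their median, 1 with no filter and 1 to 1 whichever array was left out; the gene lost was Trp53inp1 and the one kept Plk3. The cause was not tested. RTCs against derivatives had 1, and 0 to 1 with an array left out, each such fit having fewer arrays. Derivatives against ESCs and 4-OHT in MEFs stayed at 0, and untreated MEFs against ESCs had 6, and 4 to 6 with an array left out. Against Apc Min/+ ESCs alone, 1 target was 2-fold apart in Apc Min/Min, and with median centring 2 were in organoids with 4-OHT. Where leaving out an array left an arm of 1, that array was assumed to vary like the others.

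With the line of origin as a replicate block, Plk3 stayed lower in RTCs than derivatives (-1.96, adjusted p = 0.00281), and no other target was called. In MEFs the labels give only a shared number, though the pair titled 2 also shared 19.2% of deposited values. The deviations of same-numbered arrays correlated at 0.855. The replicate block called 148 genes in place of 0, with 0 of the 8 targets (Plk3 at limma adjusted p = 0.0901). Gadd45a was called among other targets (limma adjusted p = 0.0432).

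In the tested comparisons, signs that turned were all of uncalled differences. RTCs against derivatives gave Mdm2 -0.14 and Trp53inp1 -0.0088 with median centring and Mdm2 -0.0013 with the replicate block; derivatives against ESCs gave Aen -0.071 as deposited and -0.012 with median centring. With an array left out, RTCs against ESCs ranged from -0.013 to 0.30 for Mdm2, -0.21 to 0.0083 for Aen, -0.0076 to 0.26 for Ccng1 and -0.070 to 0.38 for Phlda3. RTCs against derivatives ranged from -0.29 to 0.30 for Mdm2 and -0.56 to 0.35 for Zmat3. Derivatives against ESCs ranged from -0.018 to 0.20 for Aen, -0.55 to 0.36 for Zmat3 and -0.19 to 0.40 for Mdm2. 4-OHT in MEFs ranged from -0.062 to 0.21 for Zmat3, -0.0036 to 0.41 for Mdm2, -0.23 to 0.39 for Bbc3 and -0.038 to 0.38 for Trp53inp1.

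The count of all genes called in RTCs against ESCs was 808, 358 as deposited and 234 to 1170 with an array left out; in RTCs against derivatives it was 191, 81 as deposited and 33 to 383, and in derivatives against ESCs 0, with 11 as deposited. As deposited, 4 of the 8 targets moved beyond their replicate SD in Apc Min/Min, where the median of all genes shifted to -0.32.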
